A study of Mus musculus with 2 samples.

Results

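The foetal testis was followed here through FGFR inhibition, from 24 h to 72 h of culture, in its sorted somatic cells. XY gonads with their mesonephros were taken from wild-type embryos at E12.5, with Swiss mothers and fathers of the 129T2svJ strain that carry Oct4-eGFP, and were cultured on membranes with 500 nM of BGJ398 (FGFRi), an inhibitor of the FGF receptor kinases. The mesonephros was cut away after culture, the gonads of several embryos were pooled for each sample, and the GFP-negative somatic cells were sorted for RNA-seq, so germ cells, which carry the GFP, should have been removed. The 8 libraries were chosen by their labels, as the 4 from XY gonads held for 24 h in FGFRi (M1, M3, M4 and M5) and the 4 held for 72 h in FGFRi (M2, M4, M5 and M6), out of 40 libraries in the somatic table, of which the labels put 39 in a group. All 8 were in library set 4, so the time in culture was not mixed with the set. The drug was present throughout, so both groups shared E12.5, XY, culture and FGFRi and differed in time. XY gonads cultured in vehicle (DMSO) for 72 h, 4 libraries of the same set, and for 24 h, 4 libraries of set 3, were used for comparison.

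In the foetal testis, Sertoli cells enclose the germ cells in cords, and they secrete FGF9, which acts through FGF receptors on Sertoli cells themselves and holds the testis programme in place around the time of sex determination. FGF receptors pass their signal on to the MEK and ERK kinases, which switch on immediate-early genes and their own feedback inhibitors. Outside the cords lie foetal Leydig cells, which make androgens, interstitial progenitors, peritubular and smooth muscle cells, blood vessels and macrophages.

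The 4 libraries at 24 h had between 1716197 and 2276976 counts and the 4 at 72 h had between 1754343 and 2763610, and mitochondrial genes held 1.44 to 1.63% and 1.43 to 1.83% of them. Ddx3y, on the Y chromosome, was at 72.5 to 86.0 CPM (counts of a gene scaled to the size of its library) at 24 h and at 75.1 to 97.0 CPM at 72 h, as the XY label requires, and Xist, which XX cells express from the silenced X, was at 0.437 to 2.37 CPM and at 2.87 to 5.2 CPM, called higher at 72 h (log2 fold change 1.65, FDR 0.0265). The Xist call was lost without M4 or M5 of 24 h and without M2 or M5 of 72 h, by glmTreat and by voom with treat. On the second principal component of the set 4 libraries, the 24 h FGFRi libraries lay between 37.2 and 43.9, and the 72 h FGFRi libraries between -8.47 and 6.58. Library M5 at 72 h stood apart from the other 3 of its group, with a summed level of 6288 CPM for the list of Sertoli cell products against 3721 to 4131 CPM, and of 1655 CPM for interstitial progenitor genes against 2273 to 2844 CPM. Library M1 at 24 h stood apart for erythroid genes, with a sum of 7491 CPM against 3479 to 4405 CPM. Where leaving out a library ended the call between the times of a list gene named below, the library is given beside it. For genes outside the lists that were named after their values were seen, this was not examined. In such sorted pools, fewer cells of a type and less RNA per cell cannot be told apart. The labels do not say whether the pools of a group came from separate litters or cultures, so p-values measure the spread between these libraries, which may be technical. CPM are not per length of gene, so levels are compared between libraries and not between genes.

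Of 15390 genes tested, 1035 were differentially expressed (DEGs) between 72 h and 24 h of FGFRi, at a fold change of 1.5 or more and an FDR below 0.05 (edgeR, quasi-likelihood, adjusted by Benjamini-Hochberg). DEGs made up 6.73% of the tested genes. There were 686 higher at 72 h (4.46%) and 349 lower (2.27%), and 376 and 199 of them changed at least 2-fold. For 880 of the 1035 DEGs the 4 libraries at one time did not overlap the 4 at the other. The share without overlap among all tested genes was not taken. A call and a lack of overlap rest on the same libraries, so no overlap is not separate support for a call. The median log2 fold change of all tested genes was -0.01. Leaving out 1 library at a time gave between 828 DEGs (without M5 of 72 h) and 991. The lists with the most members called were those of the cell cycle, with 13 higher, and of endothelial cells, with 9 lower. Log2 fold changes below are 72 h against 24 h, followed by the standard error (SE), and values of single libraries are in CPM, in the order M1, M3, M4 and M5 at 24 h and M2, M4, M5 and M6 at 72 h.

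**Figure D1:**
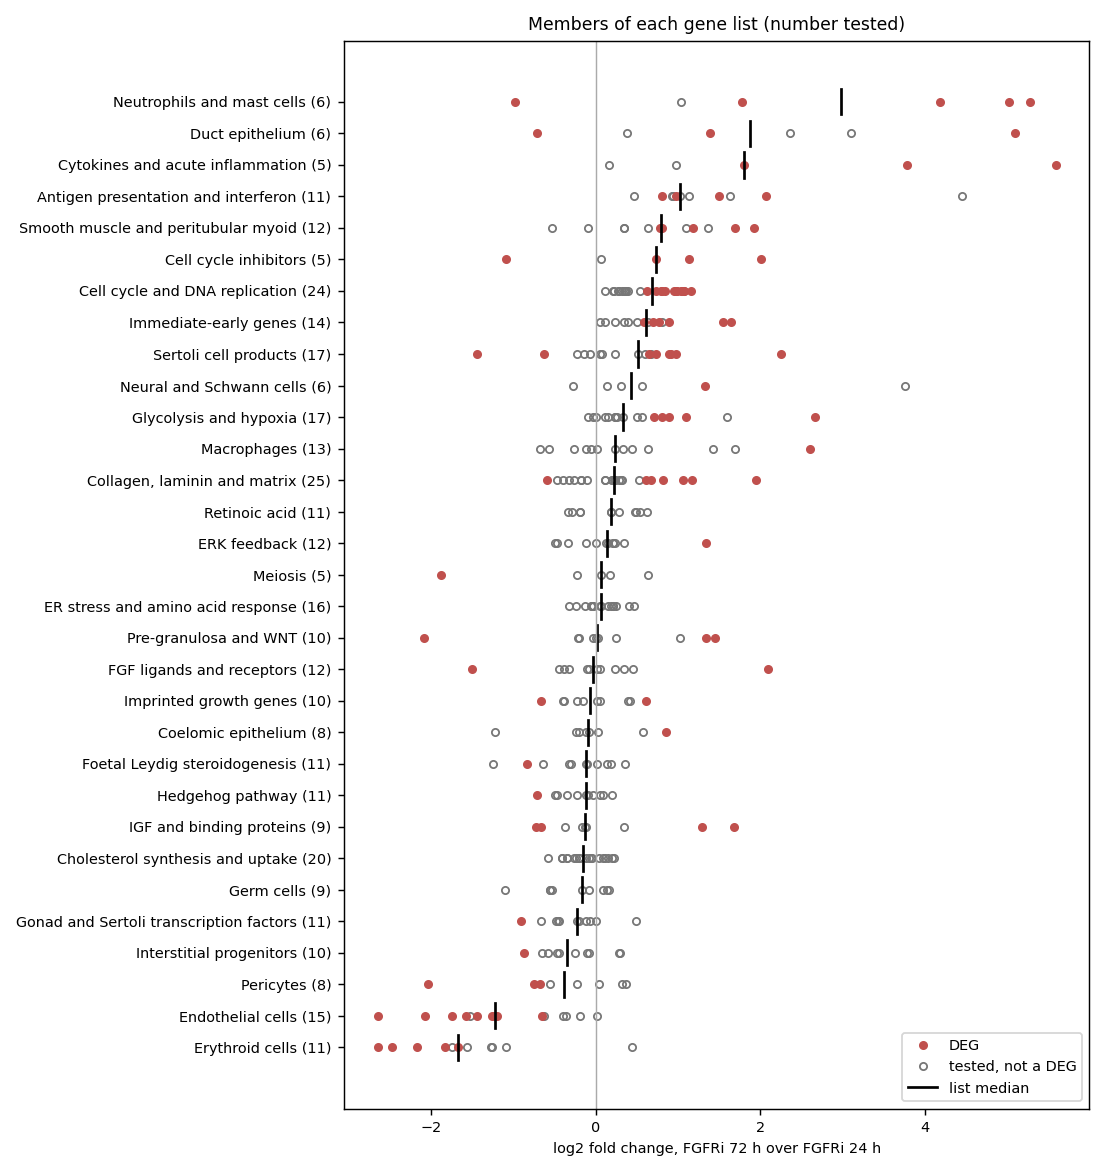
Log2 fold change, 72 h against 24 h of FGFRi, of every tested member of the gene lists, 1 row for each list. Each point is a gene, filled red where it was a DEG and open grey where it was not, and the black tick is the median of the list. Endothelial and erythroid points lie mostly to the left of 0 and the cell cycle points all to the right, with 24 of 24 above 0.

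Dividing cells need the cyclins and kinases of mitosis, and of 24 tested genes of the cell cycle and DNA replication list, 13 rose and none fell. The median log2 fold change of the list was 0.68, against -0.01 over all tested genes. Mki67, the proliferation antigen (chr7:135291513-135318299, GRCm39), was at 138, 129, 101 and 167 CPM at 24 h and at 277, 279.9, 311 and 264 CPM at 72 h. Cenpf, a kinetochore protein, was at 150.0, 119, 99.2 and 148 CPM and then at 281, 259, 367 and 246 CPM. Every library at 72 h was above every library at 24 h for both genes. The log2 fold changes were 1.08 for Mki67 (SE 0.14, FDR 1.88e-07) and 1.16 for Cenpf (SE 0.13, FDR 2.33e-09). Cdk1, the kinase that drives entry into mitosis, went from 37.2 ± 2.18 to 72.5 ± 17.9 CPM (SD, n = 4), and its cyclin partners Ccnb1 and Ccnb2 had log2 fold changes of 1.04 (FDR 2.94e-05) and 0.99 (FDR 2.02e-06). Top2a, which untangles chromosomes, had a log2 fold change of 0.84 (FDR 4.8e-09).

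None of the 6 tested Mcm genes, which encode the replicative helicase, was a DEG, and neither were Pcna, the polymerase clamp, or Rrm2 and Tyms, which supply nucleotides. Pcna was at 123, 102, 105 and 107 CPM at 24 h and at 135, 135, 157 and 129 CPM at 72 h, so the groups did not overlap, but its log2 fold change of 0.35 (FDR 0.0227) was under the 1.5-fold limit. Mcm2 overlapped between the groups, at 98.3 ± 5.01 and 106 ± 13.3 CPM (FDR 0.684). Ccne1 and Cdc6, which act before and at the start of replication, were called higher, with log2 fold changes of 1.07 (FDR 0.0273) and 0.74 (FDR 0.014). The call of Ccne1 was lost without M1 or M3 of 24 h or M4 or M6 of 72 h, and that of Cdc6 without M3 or M4 of 24 h or M4 or M5 of 72 h. Without M5 of 72 h, which had the most Cdk1 (99.1 CPM against 62.3 to 66.1 CPM), 9 of the 24 genes rose, and the test of a fold above 1.5 itself (glmTreat) left 4 and voom with treat left 2.

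To show what promoters of these genes hold, the 250 bases before the RefSeq start site (GRCm38.p6) are printed for Cdk1 (chr10:69352913-69353162, minus strand), Ccnb1 (chr13:100786487-100786736, minus strand) and Ccnb2 (chr9:70421555-70421804, minus strand), 5′ to 3′. Capitals mark CCAAT, the letters bound by NF-Y, and TTTGAA, the core of the cell cycle homology region, on either strand.
Cdk1: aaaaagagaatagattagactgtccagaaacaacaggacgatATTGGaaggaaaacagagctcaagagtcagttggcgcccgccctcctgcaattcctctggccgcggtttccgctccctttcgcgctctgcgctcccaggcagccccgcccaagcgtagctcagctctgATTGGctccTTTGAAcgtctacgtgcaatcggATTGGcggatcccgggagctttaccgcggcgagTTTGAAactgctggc
Ccnb1: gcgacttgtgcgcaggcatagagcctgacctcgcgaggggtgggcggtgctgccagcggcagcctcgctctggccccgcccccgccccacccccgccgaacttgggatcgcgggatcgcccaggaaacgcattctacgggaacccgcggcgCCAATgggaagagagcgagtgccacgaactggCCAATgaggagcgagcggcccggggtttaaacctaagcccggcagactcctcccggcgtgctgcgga
Ccnb2: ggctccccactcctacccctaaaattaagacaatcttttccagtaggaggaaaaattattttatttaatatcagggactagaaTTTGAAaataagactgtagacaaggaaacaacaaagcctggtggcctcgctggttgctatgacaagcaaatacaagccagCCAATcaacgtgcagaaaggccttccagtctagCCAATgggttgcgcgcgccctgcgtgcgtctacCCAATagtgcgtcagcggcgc
The Cdk1 stretch held 3 CCAAT and 2 TTTGAA, that of Ccnb1 2 and 0, and that of Ccnb2 3 and 1. Over windows of 250 bases before to 50 bases after the start, TTTGAA on either strand was found for 6 of the 11 cell cycle genes that rose and had a promoter sequence (54.5%), for 1 of 9 that were tested and were not DEGs (11.1%) and for 20.2% of 27025 genes. CCAAT was found for 8 of 11 (72.7%), 7 of 9 (77.8%) and 41.1%. In these 3 stretches no match of one motif overlapped the other. The motifs were looked for after the expression values were known, and a match describes the letters only.

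Inhibitors of the cyclin-dependent kinases moved in both directions, with 3 of 5 tested higher and 1 lower. Cdkn1c, which holds cells out of the cycle, fell from 714, 872, 828 and 763 CPM to 379, 372, 318 and 424 CPM, with no overlap, by a log2 fold change of -1.09 (SE 0.13, FDR 1.58e-08). Cdkn1a, the p21 inhibitor induced by p53, was at 21.3, 32.1, 23.2 and 17.5 CPM at 24 h and at 49.1, 47.9, 65.0 and 41.0 CPM at 72 h. Its groups did not overlap either, in the opposite direction (log2 fold change 1.14, SE 0.19, FDR 1.68e-05). Cdkn2c (p18) rose from 2.37 ± 2.35 to 9.93 ± 2.41 CPM and Cdkn2d (p19) from 15.6 ± 4.91 to 26.3 ± 1.82 CPM. Cdkn2d was not called without M1 or M3 of 24 h, which left 2 of the 5 higher.

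**Figure D2:**
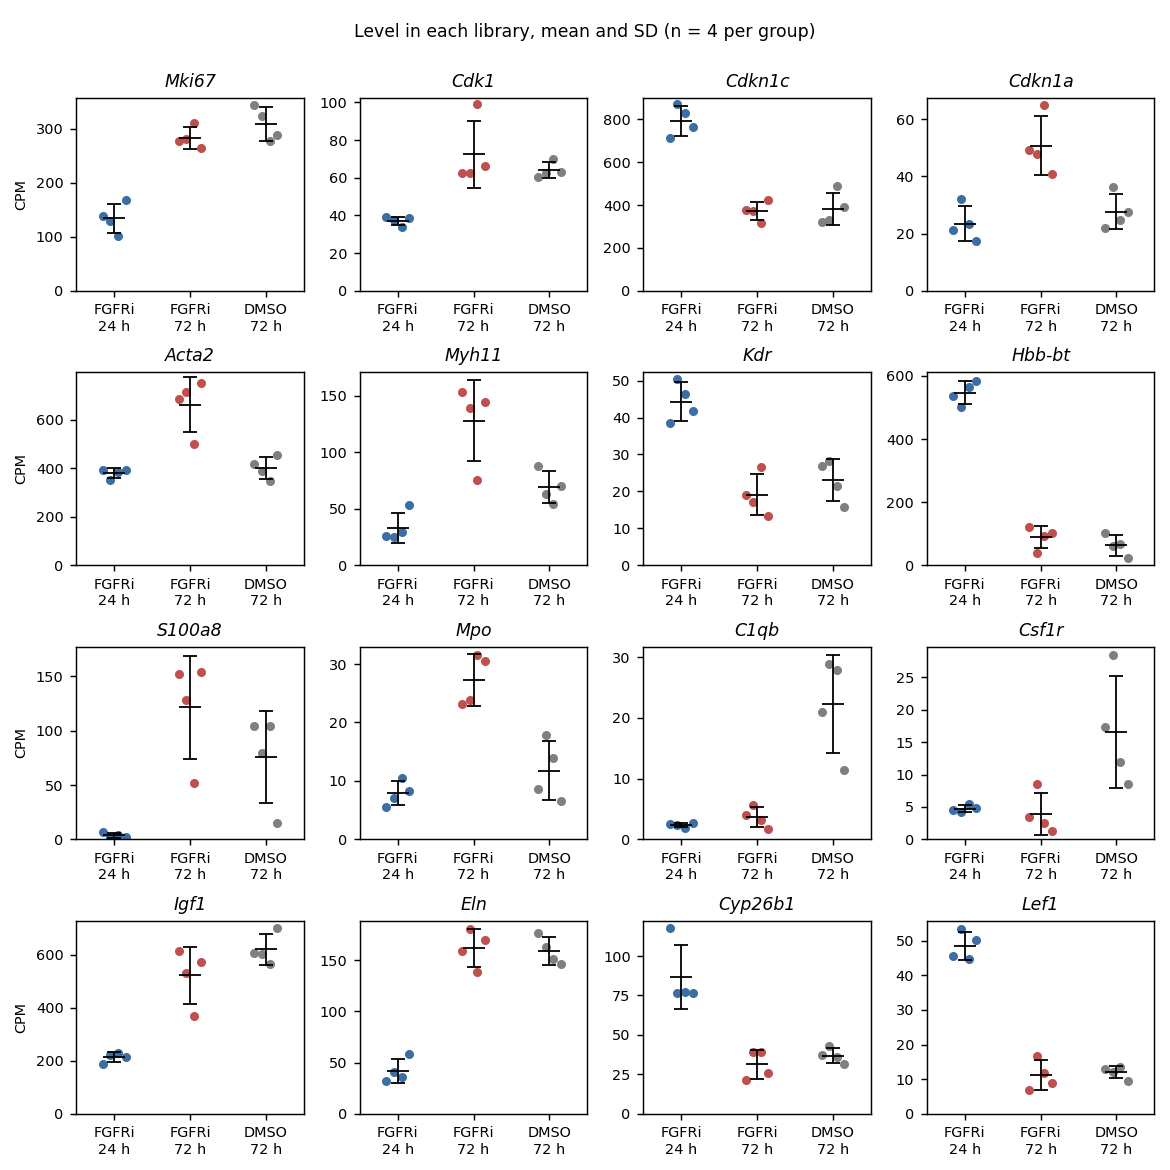
CPM of single genes in each FGFRi library at 24 h and 72 h and in the XY DMSO libraries at 72 h, on linear axes from 0, with bars for the mean and SD of each group (n = 4). Mki67 and Acta2 sit higher at 72 h than at 24 h in every library, and Cdkn1c and Kdr sit lower.

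Among 17 Sertoli cell products, 6 rose, 2 fell and 9 were not DEGs, with a median log2 fold change of 0.51. Clu (clusterin) was at 822, 699, 621 and 769.9 CPM at 24 h and at 1243, 1256, 1813 and 1409.7 CPM at 72 h, and Inha, the inhibin alpha subunit, was at 390.1, 385, 425 and 396 CPM and then at 475, 549, 838 and 634 CPM. For both genes all 72 h libraries were above all 24 h libraries, with M5 the highest, and the log2 fold changes were 0.97 (SE 0.14, FDR 1.96e-06) and 0.65 (SE 0.14, FDR 0.000941). Cldn11, a tight junction protein of Sertoli cells, Tesc, and the steroid dehydrogenases Hsd17b1 and Hsd17b3 rose as well, by 0.73, 0.89, 2.25 and 0.92 on the log2 scale. Cyp26b1, which breaks down retinoic acid and so shields germ cells from it, fell from 118, 76.6, 76.9 and 76.4 CPM to 21.4, 38.9, 39.2 and 25.9 CPM. There was no overlap, and its log2 fold change was -1.45 (SE 0.18, FDR 4.21e-08). Aard was called lower, at -0.63 (FDR 0.0057), and was not without M1 of 24 h (-0.50) or M6 of 72 h (-0.54). Without M5 of 72 h, 2 of the 17 genes rose and 2 fell, and the calls of Inha, Tesc, Cldn11 and Hsd17b3 were lost. Tesc was also not called without M4 of 24 h, nor Hsd17b3 without M3, M4 or M5 of 24 h or M6 of 72 h. Amh, the hormone by which Sertoli cells remove the female ducts, was hardly counted in these libraries, at 0.594 to 5.24 CPM at 24 h and at 2.89 to 6.11 CPM at 72 h, and uncultured XY cells had 5.71 to 13.8 CPM. As an RNA marker of Sertoli cells it was therefore near absent in this table, though Sox9 was counted in every library. By antibody staining, the study found robust AMH protein in XY gonads cultured in DMSO or FGFRi.

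Sox9, the transcription factor that makes Sertoli cells, was at 611, 379.9, 395 and 437 CPM at 24 h and at 344, 323, 488 and 399 CPM at 72 h, and these overlapped (log2 fold change -0.23, FDR 0.546). Of 11 tested transcription factors of the gonad and of Sertoli cells, Lhx9 alone was a DEG, where 6.73% of all tested genes were. Lhx9, expressed at the surface of the early gonad and in its progenitors, fell from 202, 212, 212 and 205 CPM to 135, 122, 80.5 and 108 CPM (log2 fold change -0.91, SE 0.13, FDR 5.08e-07), and the 2 groups did not overlap. Wt1, needed for the gonad to form, had a log2 fold change of -0.45 (FDR 0.00238), below the fold limit, and Nr5a1, which drives steroidogenic and Sertoli genes, one of -0.12 (FDR 0.562). Emx2, an early urogenital factor, fell by 0.72 (FDR 0.000862).

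An index of sex was taken as the mean log2 CPM of 1136 autosomal genes higher in XX than in XY uncultured somatic cells, minus that of 1378 genes higher in XY, so that lower values are more male. It was -0.969 ± 0.0731 at 24 h and -1.05 ± 0.0329 at 72 h of FGFRi (SD, n = 4), a difference of -0.077 that an exact two-sided permutation test did not separate from the spread (p = 0.114, where 0.0286 is the smallest that 4 against 4 libraries allow). Without M1 of 24 h the difference was -0.109 (p = 0.0286 by the exact permutation test, the smallest that 3 against 4 allow), and with only the 100 strongest genes in each direction it was 0.208, of the opposite sign. XY DMSO libraries at 72 h had -1.16 ± 0.0421 and XX DMSO libraries 0.544 ± 0.0819, so both FGFRi groups lay on the XY side. Among the 1378 XY-biased genes 238 rose and 114 fell, and among the 1136 XX-biased genes 67 rose and 61 fell. Of all tested genes, 4.46% rose and 2.27% fell.

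Of 10 tested genes of the pre-granulosa and WNT list, 2 rose and 1 fell, where 4.46% and 2.27% of all tested genes did. Foxl2, the transcription factor of granulosa cells, rose from 6.59, 7.12, 2.28 and 7.42 CPM to 23.7, 18.4, 10.4 and 13.0 CPM (log2 fold change 1.45, SE 0.33, FDR 0.00171), and Fst, the activin-binding follistatin, from 4.08 ± 1.52 to 10.3 ± 1.27 CPM (FDR 0.00441). Neither gene overlapped between the times, and both were also higher at 72 h than at 24 h in XY DMSO cultures, with log2 fold changes of 2.09 and 1.43. Lef1, a nuclear partner of beta-catenin in the WNT pathway, fell from 45.6, 53.4, 44.6 and 50.2 CPM to 6.93, 16.8, 11.9 and 8.78 CPM (log2 fold change -2.09, SE 0.19, FDR 1.69e-11). The other 7, Rspo1, Wnt4 and Axin2 among them, were not DEGs.

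Of 12 contractile genes of smooth muscle and peritubular myoid cells, 5 rose and none fell, at a median log2 fold change of 0.79. Acta2, smooth muscle actin (chr19:34217737-34232990), was at 390.1, 351, 384 and 392 CPM at 24 h and at 684, 713, 499 and 751 CPM at 72 h. Myh11, the smooth muscle myosin heavy chain, was at 25.3, 24.9, 29.1 and 52.8 CPM and then at 153, 139, 75.1 and 145 CPM. Both had separate groups, with M5 the lowest at 72 h, and log2 fold changes of 0.80 (SE 0.12, FDR 2.43e-06) and 1.92 (SE 0.20, FDR 3.86e-10). The actin-binding Tagln (1.18), Lmod1 (1.69) and tropomyosin Tpm2 (0.78) were the others that rose. Lmod1 was not called without M1 or M4 of 24 h or M6 of 72 h, which left 4, and glmTreat and voom with treat each called 2. Cnn1 and Actg2, at most at 12.1 CPM in a library, had log2 fold changes of 1.36 (FDR 0.164) and 1.09 (FDR 0.215), and reads of Acta2 and Actg2 may be hard to tell apart. At 72 h, 4 of the 12 genes (Acta2, Myh11, Tagln and Actg2) were higher in FGFRi than in XY DMSO, where 0.89% of all tested genes were. Tagln in FGFRi at 72 h was at 92.9, 86.1, 83.0 and 109 CPM and in DMSO at 37.2, 45.8, 44.3 and 47.8 CPM (log2 fold change 1.09, FDR 0.000174). By glmTreat and by voom with treat 0 of the 12 were called in that comparison, with 5 and 5 at an unadjusted p below 0.05, and leaving out a library gave 3 or 4, with Actg2 lost in 5 of 8 such fits.

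In the matrix, collagens give tensile strength, elastin gives recoil and small proteoglycans bind collagen. Eln (elastin) rose from 32.4, 41.0, 35.5 and 58.1 CPM to 159, 181, 138 and 170.2 CPM (log2 fold change 1.95, SE 0.16, FDR 8.62e-13). Dcn (decorin) rose from 286, 311, 287 and 356 CPM to 764, 791, 539 and 689.6 CPM (log2 fold change 1.17, SE 0.12, FDR 1.15e-10). Both were higher in all 4 libraries of 72 h. With Lum (lumican), Lama2, Col1a1 and Col6a2, 6 of the 25 matrix genes rose, and Col6a3 was called lower, at -0.59 (FDR 0.00773). Its call was lost with RLE scaling and without M5 of 24 h or M5 or M6 of 72 h (down to -0.44), and that of Col6a2 without M1 or M4 of 24 h or M2 or M4 of 72 h. The list had a median log2 fold change of 0.22. Col1a1 was at 670.2 ± 27.5 and 1068 ± 214 CPM, and without M2 of 72 h its log2 fold change was 0.55, under the fold limit.

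Of 9 IGF genes, 2 rose and 2 fell, where 4.46% and 2.27% of all tested genes did. Igf1, the growth factor, rose from 188, 223, 229 and 214 CPM to 616, 533, 370.0 and 574 CPM (log2 fold change 1.29, SE 0.12, FDR 8.83e-12), and the IGF-binding protein Igfbp6 from 31.6 ± 6.79 to 100.1 ± 3.79 CPM (log2 fold change 1.68, FDR 9.18e-11). Igfbp5, another binding protein, fell from 1021, 1118, 891 and 1069 CPM to 746, 666, 559.7 and 517 CPM (log2 fold change -0.72, FDR 9.74e-06), and Igfbp3 was called lower, at -0.66 (FDR 0.00954), but not without M4 or M6 of 72 h (-0.53 and -0.56). None of Igf1, Igfbp6 and Igfbp5 overlapped between the times. The other 5 of the 9 genes, with the receptors Igf1r and Insr, were not DEGs. In the list of 10 imprinted growth genes, Mest fell by 0.66 (FDR 1.37e-07) and Plagl1 was called higher, at 0.61 (FDR 0.002). The call of Plagl1 was lost without M5 of 24 h or M2 or M4 of 72 h (0.51 to 0.58), with the replicate block, by glmTreat and by voom with treat.

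Of 10 interstitial progenitor genes 1 was a DEG, where 6.73% of all tested genes were. Jag1, the Notch ligand, fell from 49.7, 34.4, 47.8 and 37.6 CPM to 28.3, 25.8, 18.3 and 21.3 CPM (log2 fold change -0.87, SE 0.19, FDR 0.00095), with no overlap. Nr2f2, their marker transcription factor, was at 671 ± 87.1 and 638 ± 187 CPM (FDR 0.855), and Tcf21 at 170.3 ± 12 and 209.9 ± 52.2 CPM (FDR 0.235). Of 8 pericyte genes, 3 fell, where 2.27% of all tested genes did. Ren1, the renin gene of foetal vessel walls, was at 49.1, 35.6, 59.6 and 54.6 CPM at 24 h and at 17.9, 10.2, 13.7 and 7.95 CPM at 72 h (log2 fold change -2.03, SE 0.32, FDR 7.04e-06). Pdgfrb, the receptor by which pericytes are recruited, was at 140.3, 134, 162 and 123 CPM and then at 92.4, 116, 45.6 and 81.1 CPM, and Notch3 had a log2 fold change of -0.67 (FDR 0.0163). Pdgfrb and Notch3 were not called without M5 of 72 h (log2 fold changes -0.53 and -0.50), and Notch3 was not called without M4 (-0.64) or M5 (-0.51) of 24 h either, which left Ren1. In the Hedgehog list, through which Sertoli cells act on interstitial cells, Hhip, an inhibitor of the pathway, was the only DEG of 11 (log2 fold change -0.71, FDR 0.0488). Its call was lost when any of 6 libraries was left out, and 6.73% of all tested genes were DEGs. Gli1, a direct target of the pathway, was at 88.0 ± 4.99 and 86.3 ± 21.3 CPM (FDR 0.947).

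Of the steroidogenic genes of foetal Leydig cells, Cyp11a1, which makes the first steroid from cholesterol, was at 163, 236, 289 and 158 CPM at 24 h and at 126, 143, 296 and 215 CPM at 72 h. Hsd3b1 was at 374, 537, 561 and 436 CPM and then at 314, 395, 563 and 487 CPM. Both overlapped between the times, with log2 fold changes of -0.11 (FDR 0.87) and -0.11 (FDR 0.794). Cyp17a1, which makes androgen precursors, had 61.8, 100.3, 102 and 57.2 CPM and then 41.6, 51.6, 52.8 and 57.7 CPM (log2 fold change -0.65, FDR 0.105), and it was called lower without a filter on low counts, with the replicate block (-0.87) and with the 2 groups fitted alone. Of 11 tested genes, Lhcgr, the receptor for luteinising hormone, was the DEG (log2 fold change -0.83, FDR 0.0415), where 6.73% of all tested genes were. Lhcgr was not called when M1 or M4 of 24 h or M2, M4 or M5 of 72 h was left out. Insl3 was not tested, since its counts were too low, and all of its annotated exon bases are shared with Jak3 on the same strand. The letters CAAGGTCA, or TGACCTTG on the other strand, at which Nr5a1 can bind, were in none of the 9 promoters of this list that had a sequence, and in 1.76% of all 27025. At so low a share, 9 promoters would mostly hold none, so no conclusion is drawn from their absence. None of 20 genes of cholesterol synthesis and uptake was a DEG by edgeR or DESeq2, with 3 at an unadjusted p below 0.05 by edgeR, and their median log2 fold change was -0.16. At the 6.73% of all tested genes, a list of this size would hold few DEGs.

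Of 15 genes of endothelial cells, which line the vessels, 9 fell and none rose, with a median log2 fold change of -1.22, and 9 fell whichever library was left out, with Tek in place of Egfl7 without M3 of 24 h. Kdr, the main receptor for VEGF (chr5:76093487-76139884), was at 38.5, 50.5, 46.4 and 41.9 CPM at 24 h and at 19.1, 17.2, 26.6 and 13.4 CPM at 72 h. Flt1, a second VEGF receptor, was at 28.9, 27.3, 34.6 and 17.0 CPM and then at 5.77, 3.69, 11.5 and 3.76 CPM. Cdh5, the cadherin of endothelial junctions, was at 38.5, 70.6, 65.1 and 32.8 CPM and then at 21.4, 15.2, 30.5 and 18.0 CPM. All 3 were lower in every 72 h library, with M5 the highest of them, and their log2 fold changes were -1.20 (SE 0.21, FDR 4.02e-05), -2.08 (SE 0.35, FDR 1.89e-05) and -1.26 (SE 0.25, FDR 0.000367). Pecam1, Tie1, Esam, Cldn5, Egfl7 and Cd93 were the others that fell. Emcn (endomucin) was at 8.17 ± 2.54 and 6.17 ± 2.11 CPM (FDR 0.635), and Eng, Robo4, Gpihbp1, Plvap and Tek were not DEGs either. The summed endothelial level was 291 to 489 CPM at 24 h and 123 to 251 CPM at 72 h.

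Gja5, the connexin of arteries, fell from 25.8, 26.7, 38.7 and 26.2 CPM to 1.73, 1.64, 2.16 and 0.836 CPM (log2 fold change -4.16, SE 0.41, FDR 1.01e-10). Mecom and Cldn5, also expressed in endothelium, were among the 12 largest falls, at -2.72 (FDR 7.41e-05) and -2.65 (FDR 0.000131). Chosen after the values were seen, the arterial genes Gja4 (connexin 37), Dll4, a Notch ligand, and Hey1, a Notch target, also fell, with log2 fold changes of -2.46 (FDR 4.97e-07), -2.21 (FDR 0.000448) and -1.65 (FDR 1.60e-08). They fell in XY DMSO too, by -2.74, -2.27 and -1.30.

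Of 11 erythroid genes, 5 were lower and none higher, with a median log2 fold change of -1.67, and 5 fell whichever library was left out. Hbb-bt, an adult beta globin, was at 538, 500.4, 566 and 584 CPM at 24 h and at 122, 38.1, 92.3 and 102 CPM at 72 h (log2 fold change -2.64, SE 0.33, FDR 4.29e-08), and Alas2, which starts haem synthesis in red cells, was at 21.3, 12.5, 13.2 and 20.1 CPM and then at 3.46, 1.23, 4.67 and 2.51 CPM (FDR 3.93e-05). No library of one time reached the range of the other in either gene. The adult globins Hba-a1, Hba-a2 and Hbb-bs fell too, although counts within the pairs Hba-a1 and Hba-a2, and Hbb-bs and Hbb-bt, may be split between near-identical copies. The embryonic globin Hbb-y was at 1873 CPM in M1 of 24 h and at 57.0 to 116 CPM in the other 3, and at 419, 144, 432 and 10.5 CPM at 72 h, and Hba-x was at 695 CPM in M1 against 17.8 to 32.3 CPM. Neither was a DEG (FDR 0.479 and 0.406), though both were called lower without a filter on low counts.

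Genes of neutrophils gave some of the largest increases. S100a8, a calcium-binding protein of neutrophils, was at 6.59, 1.78, 3.64 and 2.62 CPM at 24 h and at 152, 128, 52.1 and 154 CPM at 72 h (log2 fold change 5.01, SE 0.63, FDR 4.29e-08). Its partner S100a9 was at 1.52, 0, 2.73 and 0 CPM and then at 50.2, 46.7, 23.3 and 58.5 CPM (log2 fold change 5.27, SE 0.74, FDR 8.72e-07). Mpo, the myeloperoxidase of granules, was at 5.57, 7.12, 10.5 and 8.3 CPM and then at 23.1, 23.8, 31.6 and 30.5 CPM (FDR 0.00285), and Elane, neutrophil elastase, went from 0.45 ± 0.644 to 9.65 ± 2.29 CPM (FDR 0.000165). All 4 genes had separate groups, and M5 was the lowest 72 h library for S100a8 and S100a9. Of 6 tested genes of the neutrophil and mast cell list, 4 rose and Kit was called lower, at -0.98 (FDR 0.0477). The call of Kit was lost when any 1 library other than M1 of 24 h was left out, while the 4 rose in every such fit. The summed level of the list went from 26.1 to 42.3 CPM up to 128 to 273 CPM, and in XY DMSO at 72 h it was 38.4 to 174 CPM. S100a8 and S100a9 were also higher at 72 h than at 24 h in DMSO, with log2 fold changes of 3.49 and 3.31, and Mpo and Elane were not DEGs there, at 0.01 and 0.92.

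Of 13 tested macrophage genes, Lyz2 (lysozyme) was the DEG between the times, where 6.73% of all tested genes were. Lyz2 went from 10.1, 5.94, 5.92 and 6.11 CPM to 40.4, 44.3, 26.2 and 60.2 CPM (log2 fold change 2.60, SE 0.43, FDR 1.98e-05), and it is also made by neutrophils. C1qb, a complement chain made by macrophages, was at 2.53, 2.37, 1.82 and 2.62 CPM at 24 h and at 4.04, 5.74, 3.23 and 1.67 CPM at 72 h, which overlapped (FDR 0.546). In XY DMSO at 72 h it was at 20.9, 28.8, 27.9 and 11.4 CPM, above every FGFRi library, with a log2 fold change of -2.59 for FGFRi against DMSO (SE 0.36, FDR 9.38e-06). Csf1r, the receptor on which macrophages depend, was at 3.96 ± 3.23 CPM in FGFRi and at 16.5 ± 8.66 CPM in DMSO at 72 h (log2 fold change -2.05, FDR 0.00387). Of the 13 genes, 8 were lower in FGFRi than in DMSO at 72 h and none higher, where 0.903% of all tested genes were lower, and the count was 8 or 9 when a library was left out. It was 5 with the 2 groups fitted alone, 3 by glmTreat and 0 by voom with treat, for which 9 had an unadjusted p below 0.05. The summed level was 29.1 to 48.1 CPM at 24 h and 62.9 to 89.9 CPM at 72 h in FGFRi, and 96.2 to 329 CPM in DMSO at 72 h, while Adgre1, a defining marker, was too low to be tested.

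Of 12 FGF ligands and receptors, 1 rose and 1 fell, where 4.46% and 2.27% of all tested genes did. Fgf9 was at 21.3, 27.3, 23.7 and 17.0 CPM at 24 h and at 16.2, 19.7, 22.6 and 32.6 CPM at 72 h (FDR 0.946). Fgfr3 fell from 18.2, 14.8, 15.0 and 16.6 CPM to 5.2, 5.74, 5.03 and 6.69 CPM, with no overlap (log2 fold change -1.50, SE 0.32, FDR 0.000873), while Fgfr2, the receptor for FGF9 in Sertoli cells, had a log2 fold change of -0.45 (FDR 0.29). Fgf1 was called higher at a low level (1.23 ± 1.67 to 5.47 ± 2.52 CPM, FDR 0.0219), and the call was lost when M3, M4 or M5 of 24 h or M2 or M5 of 72 h was left out. Of 12 genes that feed back on ERK or report it, Etv1, an ETS transcription factor, was the DEG. Of all tested genes, 6.73% were DEGs. It rose from 14.7, 10.7, 11.8 and 14.0 CPM to 34.6, 31.6, 29.5 and 35.1 CPM (log2 fold change 1.34, SE 0.20, FDR 1.44e-06), and every 72 h library was above every 24 h one. In XY DMSO, Etv1 was at 42.4 ± 4.4 CPM at 24 h and 35.9 ± 3.62 CPM at 72 h. Dusp6, the ERK phosphatase, was at 69.2 ± 13.0 and 87.7 ± 10.4 CPM (FDR 0.327), and Spry1, a feedback inhibitor of FGF receptors, at 9.5 ± 3.34 and 11.5 ± 2.75 CPM (FDR 0.763) against 23.7 ± 3.67 CPM in DMSO at 72 h (FDR 0.0285 for FGFRi against DMSO, lost in 5 of 8 fits with a library left out).

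Of 14 immediate-early genes, 6 rose and none fell, at a median log2 fold change of 0.61, with all 14 above 0. Atf3, a stress-induced transcription factor, went from 18.2, 22.6, 28.7 and 36.7 CPM to 76.2, 74.2, 89.8 and 72.8 CPM (log2 fold change 1.54, SE 0.30, FDR 0.00026). Junb went from 245, 218, 199 and 293 CPM to 503, 365, 364 and 537 CPM (FDR 7.68e-05), and Ier3 from 21.7 ± 7.19 to 68.2 ± 30.0 CPM (FDR 1.34e-05). Atf3 and Junb had no overlap between the times. Fos was at 414, 854, 836 and 690.4 CPM and then at 1065, 1303, 1095 and 1079 CPM, and it was not called without M1 of 24 h (log2 fold change 0.51) or M4 of 72 h (0.63). Egr2 and Nr4a1 were also called higher. The call of Egr2 was lost without M1, M3 or M4 of 24 h or M4, M5 or M6 of 72 h. That of Nr4a1 was lost without M1, M3 or M4 of 24 h or M2 or M6 of 72 h. Without M1 of 24 h, 3 of the 14 genes were called. By glmTreat 2 were called and by voom with treat 0, with 3 at an unadjusted p below 0.05. In XY DMSO, 9 of the 14 rose from 24 h to 72 h, at a median of 0.77, where set and time cannot be told apart.

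Of 17 genes of glycolysis and the response to low oxygen, 5 rose and none fell, at a median log2 fold change of 0.34. Adm (adrenomedullin) went from 2.03, 4.75, 1.37 and 3.06 CPM to 12.7, 16.4, 26.9 and 12.5 CPM (log2 fold change 2.66, SE 0.39, FDR 1.25e-06). Ldha, which turns pyruvate into lactate, went from 191, 226, 239 and 203 CPM to 350.4, 307, 377 and 367 CPM (log2 fold change 0.71, SE 0.11, FDR 9.81e-06). Both were higher in all 4 libraries of 72 h, and Pdk1, Bnip3 and Ndrg1 rose by 0.89, 1.09 and 0.81, with Ndrg1 not called without M5 of 24 h. Of 16 genes of ER stress and the amino acid response none was a DEG by edgeR or DESeq2, with 1 at an unadjusted p below 0.05, and of 11 retinoic acid genes none was, with 2. Of all tested genes 6.73% were DEGs, so lists of this size would hold few, and no conclusion is drawn from none.

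Among genes of cytokines and acute inflammation, Saa3, an acute phase protein, went from 1.01, 0.594, 0 and 0 CPM to 11.5, 14.3, 34.5 and 19.2 CPM, and Lcn2 (lipocalin) from 0.777 ± 0.758 to 10.8 ± 5.27 CPM (FDR 0.000336). With Ccl2, a chemokine for monocytes, 3 of the 5 tested cytokine and acute phase genes rose. The call of Ccl2 was lost when M1 or M3 of 24 h or M5 or M6 of 72 h was left out. Irf1, an interferon response factor, went from 11.1, 10.7, 14.1 and 10.0 CPM to 45.0, 30.3, 20.8 and 36.0 CPM, without overlap (log2 fold change 1.49, SE 0.24, FDR 1.15e-05). H2-K1, which presents antigen, rose from 21.5 ± 4.65 to 37.0 ± 7.85 CPM (log2 fold change 0.81, FDR 0.00682), and the call was lost when M5 of 24 h or M5 of 72 h was left out. Counts of H2 genes may be split between similar copies.

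None of 9 tested germ cell genes was a DEG by edgeR or DESeq2, with 1 at an unadjusted p below 0.05, although Nanos3 was called lower without M5 of 72 h (-1.65, FDR 0.00994). At the 6.73% of all tested genes, a list of this size would mostly hold none or few DEGs. Their summed level was 36.2 to 78.7 CPM at 24 h and 19.6 to 60.3 CPM at 72 h. Dazl, a germ cell RNA-binding protein, was at 11.1, 8.9, 17.7 and 8.3 CPM and then at 4.62, 17.6, 18.0 and 7.11 CPM. Stra8, which starts meiosis, was called lower, from 8.11, 8.9, 6.37 and 6.55 CPM to 0, 0.82, 5.39 and 0.836 CPM (log2 fold change -1.89, FDR 0.0196), and the call was lost without M3 of 24 h or without M2, M4 or M6 of 72 h. Stra8 was the only DEG of 5 tested meiosis genes, whose median log2 fold change was 0.07, with 3 above 0. At 72 h, 2 of these 5 genes were higher in FGFRi than in XY DMSO and none lower, where 0.89% of all tested genes were higher. Epcam, an adhesion molecule of epithelia, rose from 5.57, 8.9, 11.4 and 8.73 CPM to 27.7, 18.4, 28.0 and 17.6 CPM (log2 fold change 1.39, SE 0.26, FDR 0.000165), with no overlap. Krt19, a keratin of simple epithelia, rose from 54.2, 67.1, 75.1 and 56.3 CPM to 97.0, 119.7, 121 and 116 CPM (FDR 3.94e-05), also without overlap. Krt19 was the only DEG of 8 tested coelomic epithelium genes, whose median log2 fold change was -0.10, with 3 above 0. The summed level of that list was 505 to 620 CPM at 24 h and 529 to 629 CPM at 72 h. Of 6 tested duct epithelium genes, Epcam and Cldn7 rose and Emx2 fell. The duct markers Pax2 and Wnt9b were too low to be tested, and Pax8 was at 10.6 ± 1.41 and 13.4 ± 5.61 CPM (FDR 0.555). Of 6 neural and Schwann genes Tubb3 rose, from 31.7 ± 7.1 to 79.2 ± 35.0 CPM (FDR 0.0023), and was not called without M5 of 72 h.

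Some of the largest changes lay outside these lists. Hrk, a BH3-only protein of apoptosis (chr5:118302713-118327543), had 0, 0, 0.455 and 0.437 CPM at 24 h and 15.0, 18.4, 31.6 and 19.2 CPM at 72 h. Pooled over libraries these were 2 and 205 counts, a ratio of 90.0 with a 95% counting interval of 24.6 to 748, and the fitted log2 fold change of 6.17 (FDR 1.49e-09) depends on the prior count. Ngp, a granule protein of neutrophils, had 1.01, 3.56, 0.455 and 0.873 CPM and then 86.0, 108, 21.9 and 89.1 CPM (log2 fold change 5.75, SE 0.77, FDR 2.29e-07). Hrk was near 0 in all 24 h libraries and Ngp had its lowest 72 h value in M5. Ltf (lactoferrin), Stfa3, Cstdc4 and Cstdc5, stefins of myeloid cells, Prok2 and the epithelial claudin Cldn7 were further members of the 12 largest increases, with S100a8, S100a9, Saa3 and the Notch ligand Dner. The pooled count ratios were 59.4 for Ltf (20.0 to 290), 57.6 for Saa3 (19.4 to 282), 48.3 for Cldn7 (8.31 to 1941), 42.1 for Stfa3 (7.21 to 1698), 30.7 for Dner (8.19 to 259) and 21.9 for Prok2 (5.77 to 186). Reads of the 3 stefin genes may be split between near-identical copies. Counting intervals cover counting error only.

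The 12 largest decreases held secreted and cartilage genes. Cck, the peptide cholecystokinin, fell from 13.7, 20.8, 16.4 and 15.7 CPM to 0.577, 0, 0 and 1.25 CPM (log2 fold change -5.11, SE 0.58, FDR 4.49e-09). Cpa1, a carboxypeptidase known from the exocrine pancreas, fell from 42.6, 28.5, 38.2 and 53.3 CPM to 5.77, 7.79, 6.11 and 3.76 CPM (log2 fold change -2.79, SE 0.25, FDR 5.31e-12). Neither overlapped between the times. The pancreatic enzyme genes Ctrb1 and Clps were in the same group, Ctrb1 at 32.3 ± 11.6 and 3.29 ± 1.56 CPM, and Clps with 64 pooled counts at 24 h and 3 at 72 h, 24.3 times as many once scaled to depth (7.95 to 121). The cartilage collagens Col2a1 and Col9a1 fell by 2.98 (FDR 4.14e-05) and 3.11 (FDR 1.04e-06), and Ibsp, a bone sialoprotein, from 12.2, 39.8, 29.1 and 52.0 CPM to 2.31, 4.1, 3.23 and 2.09 CPM. Nipal1 and Depp1 were the remaining 2 besides the endothelial genes. Cck, Clps, Ctrb1, Cpa1, Col2a1, Col9a1 and Ibsp were each lower at 72 h than at 24 h in XY DMSO as well, with log2 fold changes of -5.16, -5.62, -3.14, -2.95, -2.07, -2.40 and -1.88.

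**Figure D3:**
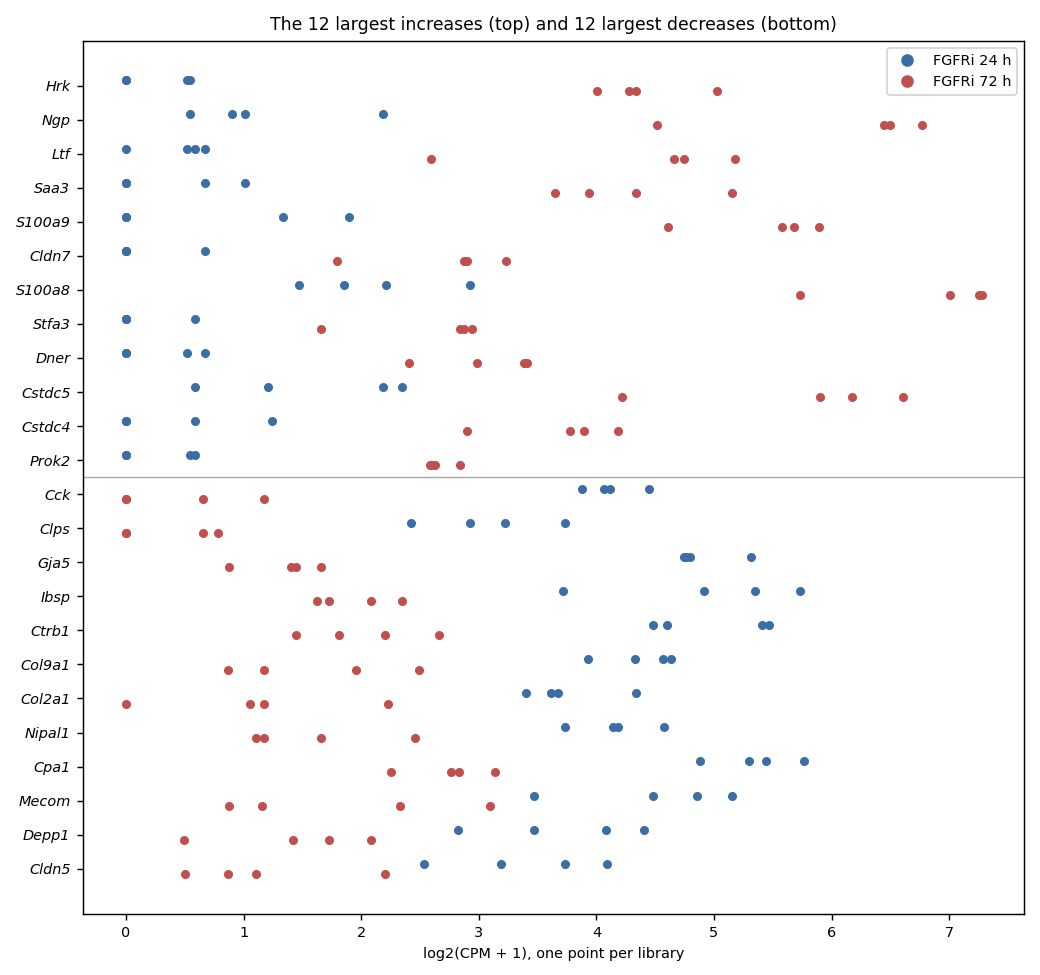
Log2 of CPM plus 1, on the x axis, of the 12 genes with the largest increase (top) and the 12 with the largest decrease (bottom), with 1 point for each FGFRi library at 24 h and 72 h. The 2 times do not overlap for any of the 24 genes, which was a condition of the choice.

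In XY DMSO cultures, 1104 genes were DEGs between 72 h and 24 h (7.17% of those tested), 629 higher (4.09%) and 475 lower (3.09%), where library set and time cannot be told apart. Of the 686 genes that rose in FGFRi, 298 also rose in DMSO, 43.4% of the first list and 47.4% of the second. Of the 349 that fell, 169 also fell in DMSO, 48.4% and 35.6% of the lists, and 1 gene, Serpina3g, was a DEG in opposite directions (0.94 in FGFRi and -0.88 in DMSO). Over the 15390 genes the 2 sets of log2 fold changes, which share no library, had a Pearson's r of 0.543 and a Spearman's rho of 0.398, given as a description across genes. Whether a gene moved differently in FGFRi and in DMSO was not tested. Side by side, the list counts were 13 and 3 higher for the cell cycle (medians 0.68 and 0.28), 9 and 9 lower for endothelial genes, 5 and 5 lower for erythroid genes, 1 and 5 higher for macrophage genes, and 0 and 6 lower for germ cell genes. The counts higher were 6 and 9 for immediate-early genes, 6 and 9 for matrix genes and 4 and 5 for antigen presentation and interferon. They were 6 and 4 for Sertoli cell products, 5 and 2 for smooth muscle genes and 5 and 4 for glycolysis and hypoxia. Mki67 was at 199 ± 38.5 CPM in DMSO at 24 h and 308 ± 31.2 CPM at 72 h, beside 134 ± 27.1 and 283 ± 19.9 CPM in FGFRi. Cdkn1c was at 489 ± 101 and 382 ± 75.9 CPM, beside 794 ± 69.6 and 373 ± 43.2 CPM in FGFRi.

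**Figure D4:**
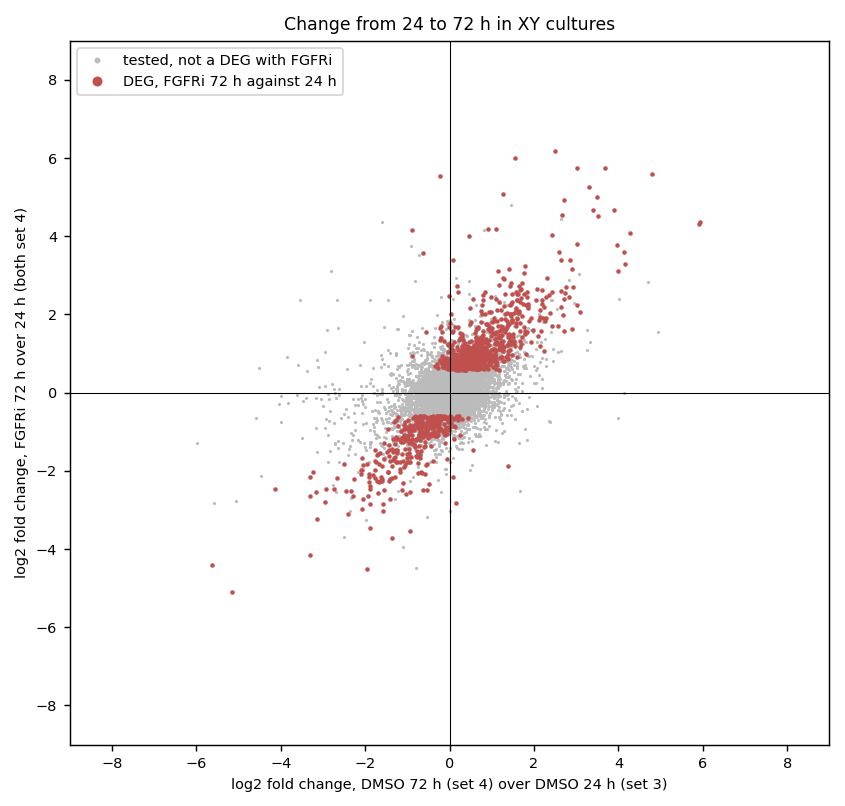
Log2 fold change from 24 h to 72 h of every tested gene, in XY DMSO cultures on the x axis and in FGFRi cultures on the y axis, with DEGs of the FGFRi comparison in red. Of the 1035 red points 965 lie in the upper right and lower left parts, and the DMSO libraries of 24 h and 72 h are of different sets. The share of all tested genes that lie in those parts was not taken.

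At 72 h, FGFRi and XY DMSO differed in 276 genes (1.79%), 137 of them higher in FGFRi and 139 lower. This comparison shares its FGFRi libraries with that between the times. The count moved with single libraries, to 91 DEGs without M5 and 170 without M6 of FGFRi, and to 123 without M2 and 162 without M6 of DMSO. By glmTreat there were 6, and by voom with treat 0, with 178 genes at an unadjusted p below 0.05. Mki67 and Cenpf were not DEGs here, with log2 fold changes of -0.12 (FDR 0.764) and 0.09 (FDR 0.824), and 0 of 24 cell cycle genes were by edgeR or DESeq2 (0 at an unadjusted p below 0.05 by edgeR). Krt18, a keratin of coelomic and Sertoli cells, was at 83.7, 70.5, 62.5 and 73.6 CPM in FGFRi and at 22.6, 47.2, 25.9 and 20.4 CPM in DMSO (log2 fold change 1.33, SE 0.18, FDR 6.73e-06). In FGFRi it had been at 85.0 ± 6.2 CPM at 24 h, without a detectable change by 72 h (FDR 0.459). Cdkn1a (0.90, FDR 0.00268), Ier3 (1.05, FDR 0.0133), Cldn11 (0.91, FDR 0.00359) and Igfbp6 (0.59, FDR 0.0206) had risen in FGFRi with time and were also above DMSO at 72 h. With a library left out of that comparison, the call of Cdkn1a was kept in all 8 fits, and that of Ier3 was lost in 2, of Cldn11 in 1 and of Igfbp6 in 5. Pdgfrb (-0.82, FDR 0.00323), Notch3 (-0.76, FDR 0.0177) and Col6a3 (-0.64, FDR 0.0133) were called lower with time and below DMSO, and these 72 h calls were lost in 1, 3 and 3 of the 8 fits, each without M5 of FGFRi among them. Of 8 pericyte genes, 4 were lower in FGFRi than in DMSO, but 0 without M5 of FGFRi (6 at an unadjusted p below 0.05 by edgeR), 1 without M2 of DMSO, and 0 by glmTreat and by voom with treat (5 and 1 at an unadjusted p below 0.05).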

How the data were processed

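Somatic cells of foetal mouse gonads were sequenced in 40 libraries, of which 39 have a group in the labels. Per the methods of the study, the authors demultiplexed the reads with scPipe, aligned them to GRCm39 with Rsubread, assigned them to annotated exons and deposited counts of unique molecular identifiers for each gene and library. That account names germ cell libraries, and it was taken to hold for the somatic ones. The deposited table of counts was used as it is. Of 42422 gene ids, 40391 matched GENCODE release M39 and took their symbols from it, and these held 99.0% of counts. The 1 column with no group in the labels was not used.

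Genes were filtered with filterByExpr by group, scaled with TMM and tested with edgeR 4.0.16 (R 4.3.3) by the quasi-likelihood test, with one mean for each of 10 groups over 39 libraries, and 15390 genes were kept. A DEG had an FDR below 0.05 over all tested genes (Benjamini-Hochberg) and changed by 1.5-fold or more. The SE is the log2 fold change divided by the root of the F statistic. CPM use TMM-scaled library sizes. The scripts were tested on simulated data with known fold changes. Alternatives were RLE scaling, no scaling factor, 2 other filters, DESeq2 1.42.0, glmTreat, voom with quality weights and treat (limma 3.58.1), fewer libraries in the fit, a block for the replicate number, and leaving out each library in turn. Genes named were the 12 largest increases and 12 largest decreases among DEGs with at least 5 CPM in the higher group, no overlap and a name not of the form Gm or Rik, and from each of 32 lists its first tested member and up to 3 DEGs of lowest FDR, with the sex chromosome genes. Other genes were named after their values were seen, and 1 gene is not reported here. The members and lists were chosen with earlier results of these data known. Promoter sequences came from RefSeq (GRCm38.p6), another build than that of the counts, and were matched by symbol.

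The replicate numbers were checked as pairs. Both groups hold an M4 and an M5, and the deviations of the libraries from their group means correlated by -0.015 for M4 and 0.015 for M5 across genes, so the numbers were not taken to pair the samples. Depth was 1716197 to 2763610 counts in these 8 libraries, and a gene at a few CPM rests on a few counts.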

Additional observations from a re-analysis of the deposited data

Results flagged for a closer look

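In 12 of 214 groups of 4 libraries examined, 1 library lay far from the other 3 by Dixon's test, which chance alone does in about 1 in 20 groups. At 24 h of FGFRi, M1 was high for Cyp26b1 (118 CPM against 76.4 to 76.9 CPM), for Lyz2 (10.1 against 5.92 to 6.11 CPM) and for Stfa3 (0.507 CPM against 0). M4 was high for Gja5 (38.7 against 25.8 to 26.7 CPM) and low for Foxl2 (2.28 against 6.59 to 7.42 CPM). M5 was high for Myh11 (52.8 against 24.9 to 29.1 CPM), and M3 was the 1 library with counts of Cldn7 (0.594 CPM).

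At 72 h of FGFRi, M5 was high for Stra8 (5.39 CPM against 0 to 0.836 CPM). It was low for Stfa3 (2.16 against 6.15 to 6.69 CPM) and for the sex index (-1.09 against -1.03 to -1.02). M4 was high for Fos (1303 against 1065 to 1095 CPM) and for Prok2 (6.15 against 5.02 to 5.2 CPM).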

How the results depend on the processing

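Between 72 h and 24 h of FGFRi, glmTreat called 281 genes (185 higher, 96 lower) and voom with treat 161 (106 and 55). In XY DMSO they called 280 (159 and 121) and 185 (114 and 71). For FGFRi against DMSO at 72 h they called 6 (1 and 5) and 0 (0 and 0, with 178 genes at an unadjusted p below 0.05), and without a filter on low counts 206 genes were higher. Both tests ask for a fold above 1.5 rather than above none. The other settings, the replicate block aside, gave 911 to 1059 DEGs between the FGFRi times. Leaving out 1 library gave 828 to 991 (521 to 636 higher, 287 to 355 lower) between the FGFRi times, 899 to 1248 (506 to 736 and 392 to 512) in DMSO, and 91 to 357 (49 to 183 and 42 to 174) for FGFRi against DMSO at 72 h. In the last, M5 and M6 of FGFRi and M2 and M6 of DMSO each lowered the count by over 1.5 times, and the cause was not tested. The DMSO time comparison could not be fitted within set 4.

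With the replicate number as a block, 899 genes were called between the FGFRi times (601 higher, 298 lower), 1071 in DMSO (631 and 440) and 261 for FGFRi against DMSO at 72 h (120 and 141). The numbers were not taken to pair the samples.

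The difference in the sex index was 0.208 with the 100 strongest genes in each direction and -0.109 to -0.0532 with a library left out. Genes that changed sign were not DEGs in any of these fits. With a library left out, the log2 fold change was -0.262 to 0.0831 for Nr2f2, -0.0960 to 0.801 for C1qa, -0.187 to 0.390 for Dazl, -0.171 to 0.169 for Fgf9 and -0.282 to 0.496 for Igf2. By voom with treat it was -0.0930 for Dazl and -0.132 for Igf2, and with the replicate block -0.0608 for Dazl. By glmTreat 30 and by voom with treat 45 named genes lost their call.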

Other observations

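The genes here were chosen after the values were seen, and none overlapped between the times. Whether their calls held with a library left out was not examined. Hmga2, a chromatin protein of embryonic growth that let-7 microRNAs repress, fell from 212 ± 25.9 to 47.3 ± 4.27 CPM (SD, n = 4) between 24 h and 72 h of FGFRi (log2 fold change -2.17, FDR 3.19e-16 by edgeR). Igf2bp1, an RNA-binding protein of embryonic tissue, fell from 201 ± 20.3 to 95.2 ± 12.2 CPM (FDR 1.05e-10), and Igdcc3, a cell surface protein of the embryo, from 35.0 ± 12.1 to 8.05 ± 2.31 CPM (FDR 3.06e-08). In XY DMSO the log2 fold changes were -1.92, -0.56 and -1.82, and Hmga2 was lower in FGFRi than in DMSO at 72 h (-0.97, FDR 5.93e-05).

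Several secreted proteins changed as well. Penk, the enkephalin precursor, rose from 5.39 ± 3.29 to 63.5 ± 11.3 CPM (FDR 1.95e-11). The matrix proteins Efemp1, Aspn and Comp rose, with log2 fold changes of 3.61 (FDR 4.55e-11), 2.49 (FDR 3.37e-09) and 3.12 (FDR 9.96e-07). Comp was also higher in FGFRi than in DMSO at 72 h (1.82, FDR 0.00412). Tac2, the neurokinin B precursor, fell from 113 ± 15.3 to 31.9 ± 7.54 CPM (FDR 4.55e-11), Nts, the neurotensin precursor, from 62.4 ± 23.0 to 10.7 ± 2.2 CPM (FDR 1.34e-07), and Cbln1, a secreted synaptic organiser, from 110.3 ± 9.5 to 29.7 ± 7.0 CPM (FDR 3.01e-10). All 7 moved the same way in XY DMSO, with log2 fold changes of 4.13, 2.60, 2.36, 3.98, -2.04, -2.34 and -1.59 in the order given. The endothelial transcription factors Sox7, Sox17 and Sox18 fell by 2.19 (FDR 2.21e-05), 1.55 (FDR 0.0251) and 1.61 (FDR 0.00123).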
